A study of Mus musculus with 41 samples.

Results

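The 7 mouse genes for inhibitors of cyclin-dependent kinases (CDKs) of the INK4 and CIP/KIP families were followed across 41 RNA-seq libraries from a knock-in model of the K27M mutation of histone H3.3. They were taken as the rows of the deposited expression table whose symbol is Cdkn2a, Cdkn2b, Cdkn2c, Cdkn2d, Cdkn1a, Cdkn1b or Cdkn1c. All 7 were found among the 34591 entries, and all 7 passed the filter on low values in each comparison. Values are FPKM (fragment counts scaled for transcript length and library size), which allow levels of different genes to be set side by side.

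CDK inhibitors restrain the step from G1 to S phase of the cell cycle. The INK4 proteins bind CDK4 and CDK6 and keep them from pairing with D-type cyclins, so that the retinoblastoma protein stays active and holds back E2F factors. The CIP/KIP proteins bind cyclin-CDK complexes more broadly, CDK2 complexes included. The Cdkn2a and Cdkn2b loci are classical targets of Polycomb repression through methylation of histone H3 lysine 27, the residue that the K27M mutation replaces with methionine, and CDKN2A is often lost in adult gliomas.

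The study set the mutant knock-in allele against a knock-in allele of tagged wild-type H3.3 (WT-Tag) in 2 settings. Brainstem tumors arose in mice of the genotype Nestin-creERT2 with H3f3aLSL-K27M-Tag/+ (20 tumors) or H3f3aLSL-WT-Tag/+ (9 tumors), and both sets also carried LSL-PDGFRαV544ins and Trp53flox/flox. Cre in these mice is driven by Nestin, a neural progenitor gene, and is inducible, and the WT-Tag tumors share the receptor transgene and the floxed p53 gene with the K27M tumors. The ages of the tumor-bearing mice are not in the labels. Neurospheres, floating cultures of neural precursor cells, came from e15.5 embryonic forebrain or hindbrain of Nestin-cre mice with H3f3aLSL-K27M-Tag/+ or H3f3aLSL-WT-Tag/+, with 3 cultures of each region and genotype, and carried neither the receptor transgene nor the floxed Trp53 allele. The labels give each culture an experiment number from 1 to 3 and a letter from A to F. Each letter is shared by 1 forebrain and 1 hindbrain culture of the same genotype. The main tests did not use this pairing. The labels do not say whether samples of a group came from separate embryos, mice or litters. The p-values therefore measure the spread between these samples, which may be technical.

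Trp53, the floxed gene, was at 2.71 ± 0.849 FPKM (SD, n = 20) in K27M and 2.85 ± 0.994 (n = 9) in WT-Tag tumors, and at group means of 5.95 to 9.17 in neurospheres. H3f3a does not tell the mutant from the tagged wild-type allele at gene level and lay between group means of 60.04 and 114 FPKM. The summed FPKM of 8 microglia and macrophage markers was 155 to 587 in tumors and 0.056 to 0.760 in neurospheres, and that of 6 endothelial markers was 17.6 to 55.9 against 0.332 to 0.823, so tumor values mix tumor cells with host cells. In such bulk samples, fewer cells of a type and less RNA per cell cannot be told apart. WT-Tag tumors 8 and 9 carried Xist and Ddx3y levels opposite to their labelled sex (Xist 0.031 and 54.5 FPKM, labelled female and male). By label, both WT-Tag cultures of experiment 3 were male, and all other cultures were female. Relative depth, read from the step that 1 fragment makes in low FPKM values, ranged from 0.267 in a forebrain K27M culture to 1.80 in a K27M tumor. The WT-Tag hindbrain culture of experiment 1 stood apart from the other 2 of its group: its summed FPKM of 13 proliferation markers was 816 against 413 and 428.

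Start-site windows of 5 members are printed so that a reader can see what the gene-level values pool, leaving out Cdkn2d, the steadiest member across tumors. RefSeq windows on GRCm38.p6 (250 bases before to 50 after an annotated start) were matched by symbol for 6 of the 7 members, all but Cdkn1c, with 9 windows in all. Capitals mark the GC box, written GGGCGG, or CCGCCC on the other strand, a motif bound by Sp1-type factors.
Cdkn2a start 1 (chr4:89294570-89294869, minus strand): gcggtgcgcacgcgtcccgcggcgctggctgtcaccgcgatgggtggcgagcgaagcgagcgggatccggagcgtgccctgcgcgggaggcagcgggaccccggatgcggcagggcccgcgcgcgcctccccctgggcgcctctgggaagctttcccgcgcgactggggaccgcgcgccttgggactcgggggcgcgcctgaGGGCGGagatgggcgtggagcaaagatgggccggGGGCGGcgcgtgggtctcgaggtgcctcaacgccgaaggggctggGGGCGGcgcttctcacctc
Cdkn2a start 2 (chr4:89282143-89282442, minus strand): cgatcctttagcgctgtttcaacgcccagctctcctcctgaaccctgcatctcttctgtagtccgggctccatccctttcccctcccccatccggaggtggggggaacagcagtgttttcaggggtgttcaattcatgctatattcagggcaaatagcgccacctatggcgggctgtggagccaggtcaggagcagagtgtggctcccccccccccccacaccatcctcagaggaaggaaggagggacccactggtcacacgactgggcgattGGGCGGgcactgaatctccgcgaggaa
Cdkn2b (chr4:89310983-89311282, minus strand): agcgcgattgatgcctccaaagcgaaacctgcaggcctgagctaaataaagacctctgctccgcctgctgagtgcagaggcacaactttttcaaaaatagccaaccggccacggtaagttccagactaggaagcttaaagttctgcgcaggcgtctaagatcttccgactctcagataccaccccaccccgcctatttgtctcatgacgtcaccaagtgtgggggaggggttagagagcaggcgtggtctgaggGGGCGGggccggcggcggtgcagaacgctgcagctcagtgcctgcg
Cdkn2c start 1 (chr4:109666707-109667006, minus strand): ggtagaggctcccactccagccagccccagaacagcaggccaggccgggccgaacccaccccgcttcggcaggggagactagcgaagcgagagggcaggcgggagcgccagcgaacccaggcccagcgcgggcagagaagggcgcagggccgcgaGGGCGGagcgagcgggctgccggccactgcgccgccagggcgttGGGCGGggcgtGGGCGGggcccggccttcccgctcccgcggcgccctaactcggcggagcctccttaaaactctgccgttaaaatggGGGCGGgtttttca
Cdkn2c start 2 (chr4:109665323-109665622, minus strand): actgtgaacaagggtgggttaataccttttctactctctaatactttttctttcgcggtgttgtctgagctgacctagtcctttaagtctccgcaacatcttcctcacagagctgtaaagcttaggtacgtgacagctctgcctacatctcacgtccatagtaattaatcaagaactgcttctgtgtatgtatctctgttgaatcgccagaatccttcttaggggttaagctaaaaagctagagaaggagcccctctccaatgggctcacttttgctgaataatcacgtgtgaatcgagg
Cdkn1a start 1 (chr17:29090729-29091028, plus strand): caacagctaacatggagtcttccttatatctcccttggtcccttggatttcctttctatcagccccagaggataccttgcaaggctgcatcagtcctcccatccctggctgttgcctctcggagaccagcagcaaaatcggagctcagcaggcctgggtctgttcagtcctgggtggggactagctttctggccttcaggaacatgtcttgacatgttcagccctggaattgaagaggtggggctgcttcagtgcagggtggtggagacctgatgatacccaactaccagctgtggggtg
Cdkn1a start 2 (chr17:29093519-29093818, plus strand): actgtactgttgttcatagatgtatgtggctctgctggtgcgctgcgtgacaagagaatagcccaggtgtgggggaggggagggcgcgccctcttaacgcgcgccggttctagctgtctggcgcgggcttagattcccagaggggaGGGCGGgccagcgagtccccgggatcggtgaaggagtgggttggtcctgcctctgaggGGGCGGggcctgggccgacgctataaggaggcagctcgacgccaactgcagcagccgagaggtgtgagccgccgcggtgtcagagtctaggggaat
Cdkn1b (chr6:134920151-134920450, plus strand): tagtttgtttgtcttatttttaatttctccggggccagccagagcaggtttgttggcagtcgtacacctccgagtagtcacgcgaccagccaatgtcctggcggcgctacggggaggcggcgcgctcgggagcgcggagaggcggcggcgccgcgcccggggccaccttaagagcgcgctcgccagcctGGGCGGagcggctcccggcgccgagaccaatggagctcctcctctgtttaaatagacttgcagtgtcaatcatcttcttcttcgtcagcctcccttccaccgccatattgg
The 2 Cdkn2a windows lie 12427 bases apart and hold 45 and 12 CpG dinucleotides, against a median of 7 over 32851 windows. Transcripts from the start farther upstream encode p19Arf and those from the other encode p16Ink4a, and the gene-level FPKM adds them together, so the products cannot be told apart here. The 2 Cdkn1a windows hold 2 and 23 CpG and lie 2790 bases apart, and those of Cdkn2c hold 33 and 8 and lie 1384 bases apart. A GC box was present in 7 of the 9 member windows and in 35.7% of all windows, which describes these letters and no binding. In the GENCODE annotation, exons of Cdkn1a overlap AC167363.2 and exons of Cdkn1c overlap Gm44732, both on the opposite strand. The sources used here do not give the strand setting of the counting, so the values of Cdkn1a and Cdkn1c may hold reads of those partners.

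Among the INK4 genes, Cdkn2a and Cdkn2c changed places between neurospheres and tumors. Cdkn2a, the p16Ink4a and p19Arf gene (ENSMUSG00000044303), had group means from 1.85 to 3.21 FPKM in the 4 neurosphere groups. In K27M tumors it ran from 4.41 through a median of 22.9 to 71.7 FPKM, and in WT-Tag tumors from 11.1 through 41.7 to 107. Every tumor lay above every neurosphere culture, whose highest value was 3.92 in the forebrain WT-Tag culture of experiment 2.

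Cdkn2c, which encodes p18Ink4c (ENSMUSG00000028551), ran the other way. Its group means were 28.6 to 34.3 FPKM in neurospheres, 6.75 ± 3.48 (SD, n = 20) in tumors with K27M and 5.28 ± 3.27 (n = 9) in those with WT-Tag. No tumor reached the lowest culture, since the highest tumor stood at 12.8 FPKM and the lowest culture at 22.3. Cdkn2a was 45.3% ± 12.2 (SD, n = 20) of the summed INK4 FPKM in K27M tumors and 61.4% ± 9.78 (n = 9) in the WT-Tag set, against group means of 3.05% to 5.74% in neurospheres. Cdkn2c was 49.6% to 55.1% of that sum in neurospheres by group mean, and 13.9% and 7.30% in K27M and WT-Tag tumors. The INK4 sum itself had group means of 51.4 to 73.1 FPKM over the 6 groups. These sums and shares take Cdkn2a at gene level, so an unknown part of them may be p19Arf and not p16Ink4a transcript.

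The other INK4 genes moved within narrower limits. Cdkn2b, the p15Ink4b gene next to Cdkn2a (ENSMUSG00000073802), had group means from 8.48 FPKM in K27M tumors to 16.7 in hindbrain K27M cultures, and no neighbours in the order of its 6 groups were separated. Cdkn2d, which encodes p19Ink4d (ENSMUSG00000066860), went from 8.96 in WT-Tag tumors to 14.4 in hindbrain K27M cultures, again with overlap between all neighbouring groups.

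Cdkn1a, the p21 gene and a classical p53 target (ENSMUSG00000023067), was the highest member in 11 of 12 neurosphere cultures. Its means were 66.6 ± 5.08 and 64.4 ± 5.68 FPKM in forebrain K27M and WT-Tag cultures, 62.0 ± 8.10 in hindbrain K27M cultures and 37.9 ± 5.03 in hindbrain WT-Tag cultures (SD, n = 3 each). Tumors, which carry floxed Trp53, ran from 3.22 to 45.2 FPKM with group means of 17.2 ± 13.8 (K27M) and 14.95 ± 10.3 (WT-Tag). The hindbrain WT-Tag cultures stood apart from the 3 other culture groups, and the upper tail of the tumors reached into their range.

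Cdkn1b, the p27 gene (ENSMUSG00000003031), was highest in hindbrain K27M cultures at 37.0 ± 7.92 FPKM (SD, n = 3), with no overlap with the next group, forebrain K27M at 24.6 ± 3.497. The difference between these groups did not pass in limma (log2 change 0.56, adjusted p = 0.112), and the share of all genes so separated was not computed. Hindbrain WT-Tag (21.4) and forebrain WT-Tag (20.97) cultures followed, and the tumors were lowest at 17.2 ± 2.77 (WT-Tag, n = 9) and 15.4 ± 5.38 (K27M, n = 20). Cdkn1c, the p57 gene, which is imprinted and expressed from the maternal allele (ENSMUSG00000037664), was higher on average with K27M in each of the 3 settings: 34.96 against 14.97 FPKM in hindbrain cultures, 15.7 against 8.94 in forebrain cultures and 24.1 against 12.6 in tumors. Of these pairs of groups, the hindbrain pair alone did not overlap.

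**Figure D1:**
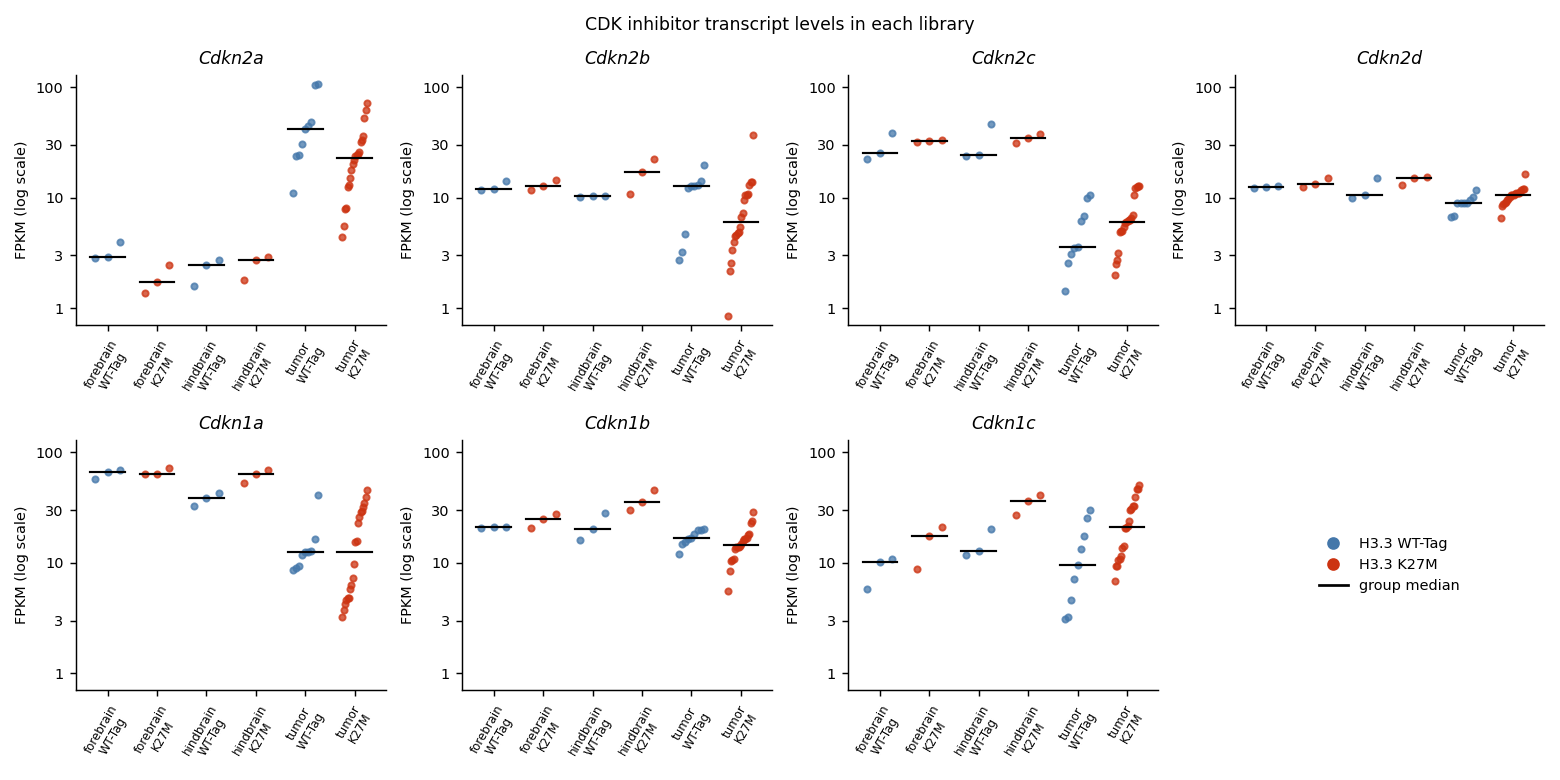
FPKM of the 7 CDK inhibitors in each of the 41 libraries, on a log axis, by region or tumor and genotype (points are libraries, black lines group medians). Cdkn2a is near 1 to 4 FPKM in every culture and at 4.41 to 107 in the tumors, while Cdkn2c shows the reverse.

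Whether K27M changes these genes was asked in hindbrain cultures, the region nearest to the brainstem tumors. All 3 CIP/KIP genes were higher in K27M than in WT-Tag hindbrain cultures, and no INK4 gene passed the test with all cultures kept. In limma's moderated test with Benjamini-Hochberg adjustment over 13190 genes, 3 of the 7 members were called higher and 0 lower, where 13.5% of all genes were called, 8.42% higher and 5.13% lower. The members' median log2 change was 0.59, against 0.09 over all genes tested.

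Cdkn1a was at 63.3, 53.4 and 69.5 FPKM in the K27M cultures of experiments 1, 2 and 3 and at 42.7, 32.7 and 38.3 in the WT-Tag cultures. Every K27M culture lay above every WT-Tag culture. The limma log2 change was 0.70 ± 0.13 (SE, adjusted p = 0.00737).

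Cdkn1b stood at 35.5, 29.9 and 45.6 FPKM with K27M and at 28.1, 16.01 and 20.1 without it. The groups did not overlap, although the highest WT-Tag culture, that of experiment 1, came close to the lowest K27M culture. The log2 change was 0.78 ± 0.19 (SE, adjusted p = 0.0252).

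Cdkn1c reached 41.1, 27.3 and 36.4 FPKM with K27M and 11.9, 12.8 and 20.2 with WT-Tag, for a log2 change of 1.19 ± 0.31 (SE, adjusted p = 0.0322). All 3 K27M cultures exceeded all 3 WT-Tag cultures. Cdkn2b also did not overlap (22.6, 16.9 and 10.7 against 10.3, 10.1 and 10.4 FPKM), but experiment 3 hardly differed (fitted log2 change 0.59 ± 0.20, SE, adjusted p = 0.0726). Non-overlap of the groups was found for 4 of the 7 members, all higher, where 28% of all genes did not overlap and 16.9% did so with K27M higher. The log2 changes of Cdkn2a (0.09), Cdkn2c (0.19) and Cdkn2d (0.28) did not pass in limma (adjusted p = 0.770, 0.626 and 0.180).

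These calls rest on few cultures. With 1 culture left out at a time, Cdkn1a passed each time (highest adjusted p 0.0385). Cdkn1b was lost without the K27M culture of experiment 1 or 3 or the WT-Tag culture of experiment 2 or 3 (highest 0.101), and Cdkn1c without the K27M culture of experiment 1 or 3 or the WT-Tag culture of experiment 2 (highest 0.115). INK4 genes passed in 2 of these runs: Cdkn2b without the K27M culture of experiment 3 (0.87, adjusted p = 0.00845), and Cdkn2d without the WT-Tag culture of experiment 1 (0.45, 0.00801). Fitted on the 2 hindbrain groups alone, Cdkn1a (0.0596) and Cdkn1b (0.09998) did not pass, and with no filter on low genes Cdkn1b (0.0617) and Cdkn1c (0.0794) did not. Without experiment 3, in which sex and genotype cannot be told apart, 0 of 7 members passed (Cdkn1a 0.62, adjusted p = 0.131; Cdkn1b 0.59, 0.258; Cdkn1c 1.37, 0.0927), and without the WT-Tag culture of experiment 1 there were 4 calls, when the count over all genes went from 1787 to 4305. The members remained positive under TPM and median-of-ratios scaling, which moved the median of all genes to 0.14 and 0.03, but under TPM scaling only Cdkn1a passed and the calls over all genes split 256 higher to 248 lower, against 1111 to 676 as deposited. Beside these changes, all 7 astrocyte markers were lower in K27M hindbrain cultures, 5 of them past the threshold, with sums of 83.6 to 119 FPKM against 181 to 371. The 5 mature oligodendrocyte markers tested were lower too by fitted change, 2 past the threshold, and sums over all 8 were 18.8 to 27.9 against 31.2 to 99.1 FPKM. The 13 proliferation markers were all higher by the fitted change with 0 past the threshold, and their sums were 624 to 823 against 413 to 816 FPKM. The part of these lists in the member changes was not tested.

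**Figure D2:**
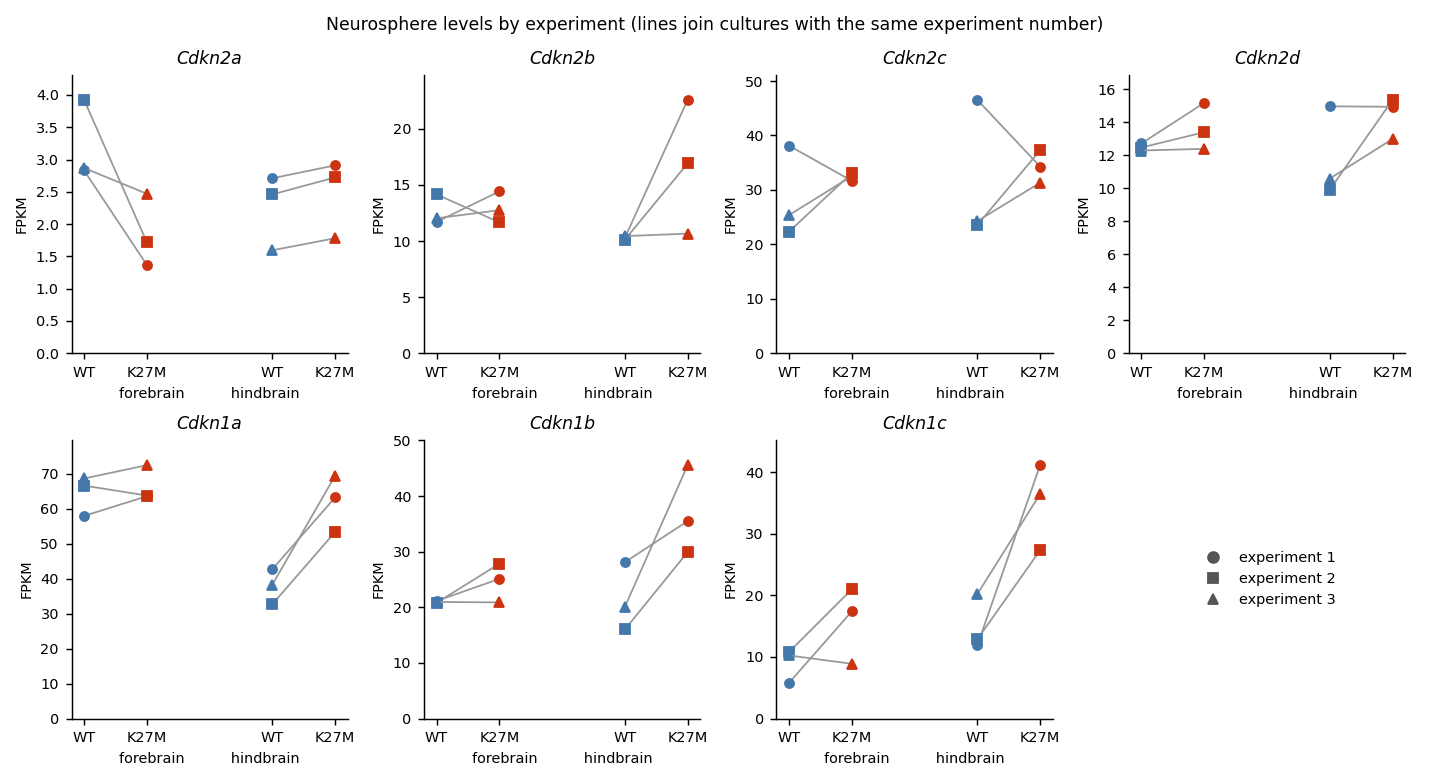
FPKM of each member in the 12 neurosphere cultures, WT-Tag and K27M, with lines joining cultures of the same region and experiment number. The hindbrain lines of Cdkn1a, Cdkn1b and Cdkn1c all rise, while those of Cdkn2c and the forebrain lines of Cdkn1a go both ways.

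In forebrain cultures the same comparison gave no call among the 7 members, where 0.356% of genes were called. The unadjusted limma p was under 0.05 for 2 of the 7 members and for 1726 of 13190 genes. Cdkn2a was at 1.37, 1.72 and 2.47 FPKM with K27M and at 2.83, 3.92 and 2.87 with WT-Tag. The groups did not overlap and the log2 change was −0.57 ± 0.19 (SE, adjusted p = 0.242), where 24.9% of all genes did not overlap, and 9.84% lay lower with K27M. Cdkn1c stood at 17.4, 20.97 and 8.88 FPKM with K27M and at 5.79, 10.8 and 10.2 with WT-Tag. Experiment 3 went against the other 2, and the change was 0.72 ± 0.31 on the log2 scale (SE, adjusted p = 0.361). Cdkn1a, at 63.6, 63.8 and 72.5 against 57.96, 66.6 and 68.7 FPKM, had a log2 change of 0.05 with a 95% interval from −0.23 to 0.33. All 7 astrocyte markers were lower by fitted change here too, 1 past the threshold, with sums of 137 to 150 FPKM against 175 to 361, and their part in the member values was not tested.

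The difference between the regions in the K27M effect was tested directly, as an interaction. No member passed, where 0.0379% of genes did (0.0303% in the positive and 0.00758% in the negative direction). The unadjusted limma p was under 0.05 for 2 of the 7 members and for 831 of 13190 genes. Without the hindbrain WT-Tag culture of experiment 1, the genes passing went from 5 to 324. Cdkn1a came closest with a hindbrain minus forebrain difference of 0.65 ± 0.18 on the log2 scale (SE, limma adjusted p = 0.429). Cdkn2a followed with 0.66 ± 0.27 (adjusted p = 0.737). By this test, then, the hindbrain changes of the CIP/KIP genes were not shown to differ from the forebrain ones.

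Between the regions, 1 member was called in each genotype. Among WT-Tag cultures, Cdkn1a was lower in hindbrain than in forebrain by −0.75 ± 0.13 on the log2 scale (limma adjusted p = 0.0102), the single call among 7 members, where 1.82% of genes were called, 0.713% lower and 1.11% higher. Its 3 hindbrain values, at most 42.7 FPKM, lay below its 3 forebrain values, at least 57.96. The share of all genes so separated between regions was not computed. Between genotypes, also with 3 cultures a group, it was 24.9% in forebrain and 28% in hindbrain. Among K27M cultures, Cdkn1a differed by −0.11 (95% interval −0.39 to 0.17) and the single call was Cdkn1c, higher in hindbrain by 1.16 ± 0.31 (adjusted p = 0.0460), where 7.92% of genes were called, 4.47% higher and 3.45% lower. Both calls were lost without experiment 3 (Cdkn1a −0.72, adjusted p = 0.191; Cdkn1c 0.78, 0.269) and with TPM scaling (0.0621 and 0.0888). That of Cdkn1c was also lost with a pseudocount of 0.1 (0.0510), with no filter (0.103) and with the experiment number as a block (0.0669). With the culture letter as a block, which pairs the regions, both calls were kept. The Cdkn1a call was also lost without the WT-Tag forebrain culture of experiment 2 or 3 (0.0628 and 0.0610), and that of Cdkn1c when any of 5 of the 6 K27M cultures was left out, all but the forebrain culture of experiment 2 (adjusted p from 0.0560 to 0.165).

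**Figure D3:**
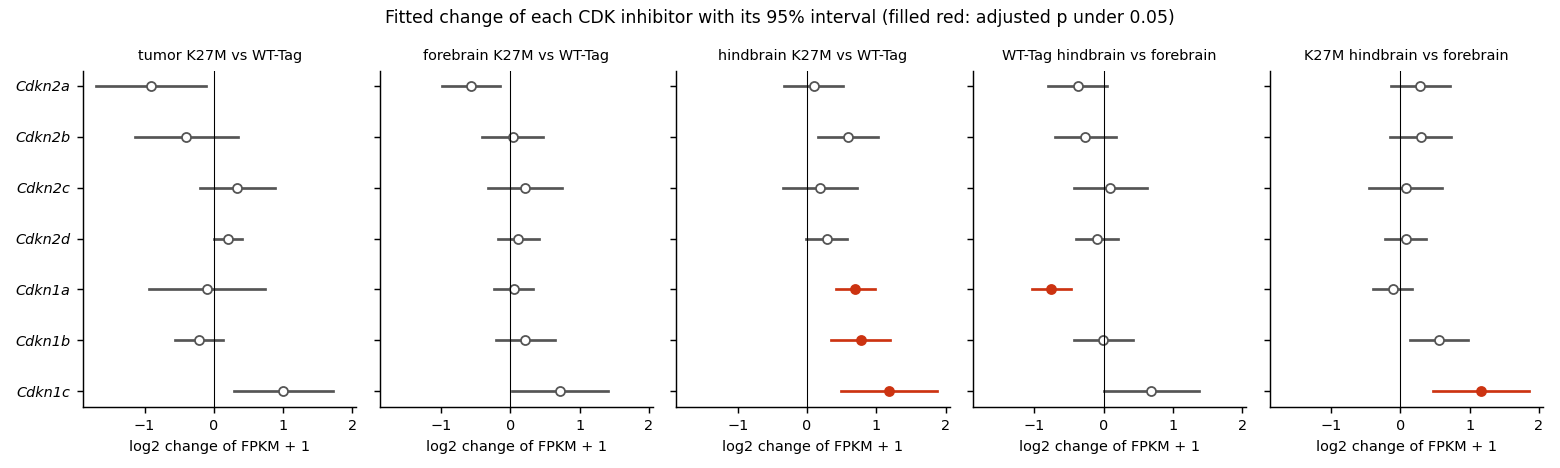
Log2 change of FPKM + 1 for each member with its 95% interval from limma, for K27M against WT-Tag in tumors, forebrain and hindbrain cultures and for hindbrain against forebrain in each genotype. Filled red points passed an adjusted p of 0.05: Cdkn1a, Cdkn1b and Cdkn1c in hindbrain, Cdkn1a between WT-Tag regions and Cdkn1c between K27M regions.

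In the tumors, no member passed between K27M and WT-Tag (0 of 7, where 0.0846% of 15360 genes did, 0.0456% higher and 0.0391% lower). An unadjusted limma p under 0.05 was found for 3 of the 7 members and for 1104 of the 15360 genes. Cdkn2a exceeded the WT-Tag median in 3 of 20 K27M tumors, and 8 of 9 WT-Tag tumors exceeded the K27M median. WT-Tag tumors 9 (107 FPKM) and 28 (104) lay above all K27M tumors, and K27M tumors 16 (4.41), 20 (5.56), 25 (7.82) and 13 (7.98) lay below all WT-Tag tumors. The fitted log2 change was −0.91 ± 0.39 (SE, 95% interval −1.71 to −0.11, adjusted p = 0.637).

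Cdkn1c was displaced the other way. It ran from 6.89 through a median of 21.1 to 50.3 FPKM in K27M tumors and from 3.12 through 9.63 to 29.9 in WT-Tag tumors. Of the K27M tumors, 17 of 20 exceeded the WT-Tag median and 8 exceeded every WT-Tag tumor, yet the change did not pass (1.01 ± 0.35 on the log2 scale, SE, limma adjusted p = 0.490). Cdkn1c was the highest of the 7 members in 10 of 20 K27M tumors and in 1 of 9 WT-Tag tumors, while Cdkn2a was the highest in 5 of 20 and 7 of 9. Summed over family, INK4 genes were 45.6% ± 11.8 of the FPKM of all 7 members in tumors with K27M and 58.9% ± 13.5 in those with WT-Tag (SD, n = 20 and 9). Here too Cdkn2a counts at gene level, any p19Arf transcripts included.

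Cdkn1a had an SD of log2 FPKM + 1 of 1.21 among K27M tumors and 0.65 among WT-Tag tumors, a difference that was not tested. K27M tumors ran from 3.22 through 12.6 to 45.2 FPKM, with 8 of them at 22.98 or more (tumors 14, 16, 24, 15, 22, 2, 21 and 17), and 9 lay below every WT-Tag tumor. WT-Tag tumors lay between 8.62 and 16.3 FPKM apart from tumor 29 at 41.6. The genotype difference was −0.09 on the log2 scale, and it turned to 0.10 without tumor 29. Cdkn1b went from 5.52 through 14.4 to 28.7 FPKM in K27M tumors and from 12.03 through 16.8 to 20.3 in WT-Tag tumors, with K27M tumors beyond both ends of the WT-Tag range.

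The spread between tumors of a genotype, as the pooled SD of log2 FPKM + 1, was 1.07 for Cdkn1a, 1.03 for Cdkn2a, 0.95 for Cdkn2b and 0.92 for Cdkn1c. These 4 members stood at the 97.2, 96.7, 95.6 and 95.1 percentile of all genes, whose median SD was 0.38. Cdkn2c followed at 0.69 (87.5 percentile) and Cdkn1b at 0.43 (60.5), and Cdkn2d was steady at 0.24, the 12.5 percentile. Summed mature oligodendrocyte markers had medians of 1084 FPKM with K27M and 536 with WT-Tag, and neuron markers 415 and 244, with ranges that overlap and 0 of 8 and 0 of 9 of these genes called. Their part in the genotype values was not tested.

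Tumors were also set against hindbrain cultures of the same genotype, where a large share of all genes was called. With K27M, 6 of 7 members were called (1 higher, 5 lower), where 59.6% of 16803 genes were (33.1% higher, 26.5% lower). With WT-Tag, 3 of 7 were called (1 higher, 2 lower), where 46.3% were (28.9% higher, 17.4% lower). Cdkn2a was higher in tumors by 2.63 ± 0.54 on the log2 scale with K27M (limma adjusted p = 8.62e-05) and by 3.63 ± 0.58 with WT-Tag (4.27e-06). Cdkn2c was lower by −2.32 ± 0.37 and −2.47 ± 0.40 (adjusted p 2.49e-06 and 6.07e-06). Neither gene's groups overlapped, where 36.4% of genes did not overlap with K27M (20.6% higher, 15.8% lower) and 29.1% with WT-Tag (20.3% higher, 8.81% lower).

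Cdkn1a was lower by −2.23 ± 0.56 with K27M (adjusted p = 0.000899) and by −1.44 ± 0.60 with WT-Tag (0.0476), the latter lost without WT-Tag tumors 8 and 9 (0.0635), with a pseudocount of 0.1 (0.0527), with no filter (0.0718) and when any of 10 of the 12 libraries was left out, all but tumors 8 and 29 (highest 0.141, without the hindbrain culture of experiment 1). Cdkn1b fell by 1.27 ± 0.24 with K27M, and had a value of −0.28 ± 0.26 with WT-Tag (limma adjusted p 3.37e-05 and 0.382). Cdkn2b (−1.17, adjusted p = 0.0434) and Cdkn2d (−0.44, 0.00873) were called lower with K27M and had −0.18 (0.801) and −0.36 (0.0542) with WT-Tag. Cdkn2d with WT-Tag did pass with TPM scaling (−0.53, 0.0205), with median-of-ratios scaling (−0.48, 0.0179) and in 3 of 12 runs that left out 1 library (tumor 7 or 11 or the hindbrain culture of experiment 2, adjusted p from 0.0307 to 0.0476). For none of these genes was the difference between the genotypes tested. The Cdkn2b call was lost in 10 of the 23 runs that left out 1 library (without K27M tumor 3, 4, 5, 12, 13, 18, 20 or 25, or the hindbrain culture of experiment 1 or 2, highest 0.201), and that of Cdkn2d in 1 of them (0.0574, without the hindbrain culture of experiment 2). TPM scaling moved the median of all genes from 0.10 to −0.06 with K27M and from 0.16 to 0.03 with WT-Tag, and turned the direction of no member. Tissue and culture, p53 and receptor alleles and age all differ between these groups and cannot be told apart.

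The kinases and cyclins that these inhibitors act on, and their upstream regulators, were read from lists of 29 and 20 genes. In K27M against WT-Tag hindbrain cultures, 2 of 29 CDK, cyclin, RB and E2F genes were called higher and 0 lower, where 8.42% of all genes were called higher and 5.13% lower, so the list's share was no larger than that of all genes. The 2 were Cdc25a, a phosphatase that activates CDKs (0.59, limma adjusted p = 0.0465), and Mnat1, a subunit of the CDK-activating kinase (0.27, 0.0360). Of 16 regulators tested, 3 were called higher, beside the same 8.42% of all genes. They were Bmi1, a Polycomb repressor of Cdkn2a (0.64, adjusted p = 0.00471), Rnf2, its ubiquitin ligase partner (0.45, 0.0102), and Mdm2, the ligase that degrades p53 (0.58, 0.00736). Bmi1 was also called higher in forebrain K27M cultures (0.74, adjusted p = 0.00810), at 44.6 ± 1.83 against 26.3 ± 0.516 FPKM (SD, n = 3), the only call from either list there. In tumors Bmi1 was at 29.5 ± 8.22 (K27M) and 28.7 ± 8.16 (WT-Tag) FPKM (SD, n = 20 and 9), a log2 change of 0.04 with a 95% interval from −0.28 to 0.35, and 0 of 28 and 0 of 18 genes of the lists were called. Mdm2 was at 20.02 and 13.1 FPKM in hindbrain K27M and WT-Tag cultures.

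Cdk4, the main INK4 target here by level, was at 91.6 to 126 FPKM by group mean in cultures and at 41.7 ± 17.6 (K27M) and 56.5 ± 26.3 (WT-Tag) in tumors (SD), while Cdk6 lay between 1.49 and 2.05 FPKM in all 6 groups. Ccnd1, cyclin D1, had means of 229 to 372 FPKM in cultures and 144 to 170 in tumors. Ccnd2, cyclin D2, was lower in hindbrain than in forebrain cultures with either genotype (−1.02, adjusted p = 0.00726 with WT-Tag, −0.63, 0.0385 with K27M), the single call of the list in both. Rb1 was at 8.31 to 13.3 FPKM and Ezh2, the Polycomb methyltransferase, at 5.05 to 17.96 by group mean.

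In tumors against hindbrain cultures, 22 of 29 CDK, cyclin, RB and E2F genes were called lower and 1 higher with K27M, and 15 lower and 1 higher with WT-Tag. Over all genes, 26.5% were called lower and 33.1% higher with K27M, and 17.4% and 28.9% with WT-Tag. The one higher was Ccnd3, cyclin D3, in both (0.77 and 1.14 on the log2 scale). The largest falls with K27M were those of Ccnb2 (−3.10), Cdk1 (−2.74), Ccna2 (−2.74), Ccnb1 (−2.72) and Ccnd2 (−2.12), all genes of S phase or mitosis apart from Ccnd2. All 13 proliferation markers were called lower in that comparison, and 12 of 13 with WT-Tag. Of 19 regulators tested, 3 were called higher and 12 lower with K27M, and 3 higher and 7 lower with WT-Tag. Of all genes, 33.1% and 28.9% were called higher, a larger share than of the regulators, and 26.5% and 17.4% lower. Called higher in both genotypes were Cbx7, a Polycomb reader (0.78 and 1.00 on the log2 scale), Foxo1 (0.60 and 0.91) and Tbx2, a repressor of Cdkn2a (0.96 and 1.24). The largest falls with K27M were those of Cks1b (−2.81) and Skp2 (−1.83), parts of the ligase that degrades p27, then Ezh2 (−1.70), Rnf2 (−1.41) and Trp53 (−1.34).

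Across the 29 tumors, 63 relations were computed, 21 between members and 42 between a member and the mean log2 level of a marker list. Of these, 17 passed after adjustment over the 63, 5 of them between members. Within the K27M tumors 10 passed, and within the 9 WT-Tag tumors 1 did. The tightest was that of the neighbouring genes Cdkn2a and Cdkn2b, with Spearman rho 0.84 and Pearson r 0.84 (permutation p = 1e-05 for both, the smallest that 100000 permutations can give, adjusted 0.00063). It was 0.82 within the 20 K27M tumors and 0.95 within the 9 WT-Tag tumors, and r was 0.81 without the 2 tumors farthest from the median. K27M tumor 17 held the highest K27M value of both genes (71.7 and 36.6 FPKM) and tumor 16 the lowest (4.41 and 0.847), and tumors 9 and 26 were at the corresponding ends among WT-Tag tumors.

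Cdkn2c followed Cdkn2a (rho 0.55, r 0.56, permutation adjusted p = 0.0187 for rho) and Cdkn2b (rho 0.51, r 0.50, 0.0233). With Cdkn2a, rho was 0.69 within K27M (permutation adjusted p = 0.00972) and 0.82 within WT-Tag tumors, where it did not pass (0.168). With Cdkn2b it was 0.60 (0.0344) and 0.72, the latter again not passing (0.181). Without the 2 farthest tumors r was 0.45 and 0.36 over all tumors.

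Cdkn1a and Cdkn1b ran in opposite directions (rho −0.54, r −0.63, permutation adjusted p = 0.0187 for rho). Spearman's coefficient was −0.77 within K27M and 0.08 within WT-Tag tumors, and the difference between the genotypes was not tested. K27M tumor 14 had the highest Cdkn1a and the lowest Cdkn1b (45.2 and 5.52 FPKM), and tumor 4 had the lowest Cdkn1a and the highest Cdkn1b (3.22 and 28.7). Without the 2 farthest tumors r was −0.53. A relation of Cdkn2d with Cdkn1b had rho −0.50 and r −0.50 (permutation adjusted p = 0.0282 for rho), and r was −0.19 without the 2 farthest tumors. With TPM scaling its rho was −0.16 and did not pass (adjusted p = 0.570).

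**Figure D4:**
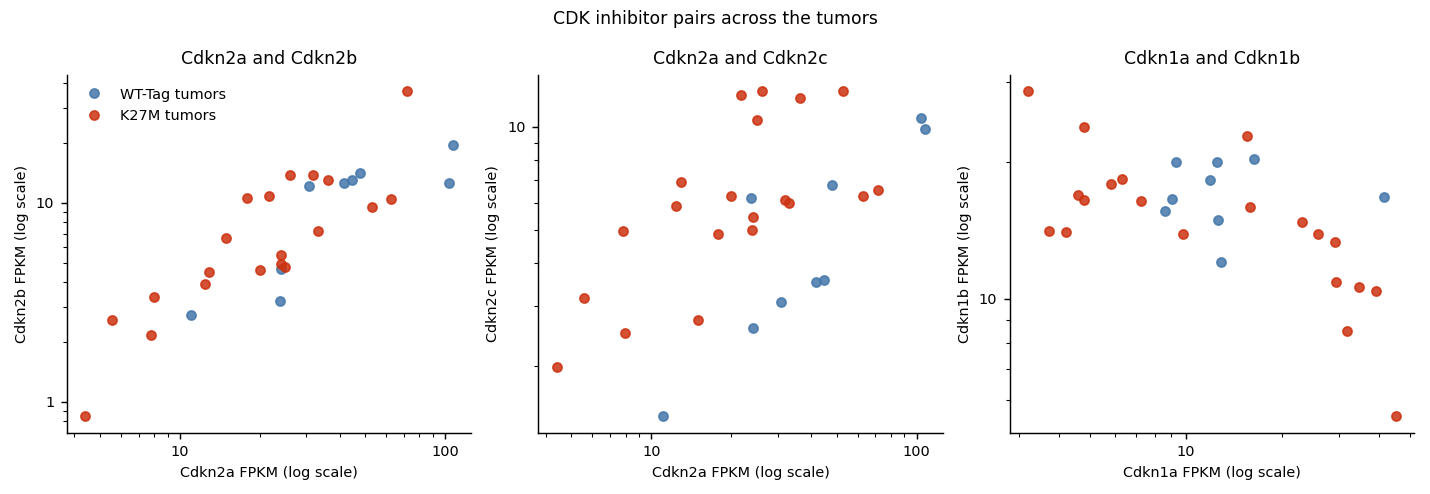
FPKM of 3 pairs of members in the 29 tumors on log axes, WT-Tag in blue and K27M in red. Cdkn2a and Cdkn2b rise together (rho 0.84), Cdkn2c follows Cdkn2a at a lower level in WT-Tag tumors, and Cdkn1b falls as Cdkn1a rises among K27M tumors (rho −0.77).

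Cell type and proliferation markers moved with several members over the same tumors, and their part in the pair relations was not tested. Cdkn2a had rho −0.61 (r −0.55) with the neuron list and −0.53 (r −0.58) with the mature oligodendrocyte list (permutation adjusted p for rho 0.00945 and 0.0187). Cdkn2b had −0.62 (r −0.51) and −0.61 (r −0.58) with the same lists (both 0.00945). Cdkn2c had −0.53 (r −0.51) with the neuron list and 0.50 (r 0.54) with the proliferation list (0.0202 and 0.0284).

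Microglia and macrophage markers went with both of the opposed CIP/KIP genes, in opposite directions. Cdkn1b had rho 0.55 (r 0.47) with that list and Cdkn1a had −0.49 (r −0.48, permutation adjusted p = 0.0187 and 0.0284). Cdkn1b also had −0.57 (r −0.35) and −0.54 (r −0.34) with the mature oligodendrocyte and neuron lists (0.0151 and 0.0187). Cdkn2d had a positive relation with mature oligodendrocyte markers (rho 0.59, r 0.39, adjusted p = 0.0102), with rho 0.34 within K27M tumors. It did not pass with TPM scaling (rho 0.42, permutation adjusted p = 0.0743) or with genotype means subtracted (rho 0.45, 0.0572). Cdkn1b with the same list did not pass with TPM scaling either (rho −0.38, permutation adjusted p = 0.102). Cdkn1c had rho −0.48 (r −0.19) with the astrocyte list (adjusted p = 0.0324), with −0.80 within K27M and −0.13 within WT-Tag tumors. With genotype means subtracted this relation had rho −0.44 and did not pass (permutation adjusted p = 0.0595). With the proliferation list Cdkn1c had rho 0.42 over all tumors (adjusted p = 0.0675), 0.79 within K27M (adjusted p = 0.00189) and −0.28 within WT-Tag tumors. Without the 2 tumors farthest from the median, r for these relations kept its sign, from −0.57 (Cdkn2c with neuron) to 0.47 (Cdkn1c with proliferation), and was nearest 0 for Cdkn1b with the neuron list (−0.27).

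The genes whose levels ranked the tumors most like each member were named by Spearman rho over 15360 genes and 29 tumors, as a description. For Cdkn2a they were Cdkn2b (0.84), Gpx7 (0.83), Ddost (0.78), Tmed9 (0.77) and Gm11353 (0.77). For Cdkn2b they were Fndc3b (0.85), Cdkn2a (0.84) and Grwd1 (0.84), and for Cdkn2c Rpl22 (0.89), Rpa2 (0.87) and Rpl11 (0.87). Cdkn2d was closest to Gm4694 (0.92), Bace2 (0.68) and Cryab (0.68). Cdkn1a was closest to Gm129 (0.89), the circadian repressor Ciart under an older name, Nfkbia, the NF-kappaB inhibitor (0.89), and Pnpla2, a lipase (0.88). Cdkn1b was closest to Aplf (0.88), Acp6 (0.87) and Fut10 (0.86), and Cdkn1c to Sirt2 (0.83), Pllp (0.81) and Dusp9 (0.81).

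Position was shared by many of these genes, which was noticed after the lists had been seen. Chromosomes were read from the RefSeq table of GRCm38.p6 for 14559 of the 15360 genes (94.8%). Of the 100 genes most like Cdkn2c, 43 lie on chromosome 4 with it, where 6.07% of all genes placed do, and Rpl22, Rpa2 and Rpl11 are among them. For Cdkn2a, also on chromosome 4, the count was 30, and for Cdkn1b it was 32 on chromosome 6 (4.88% of genes). Cdkn1c had 17 on its own chromosome 7 (7.29%), fewer than the 19 on chromosome 2. Cdkn2b, next to Cdkn2a, had 3 on chromosome 4, Cdkn2d had 7 on chromosome 9 (5.39%) and Cdkn1a 5 on chromosome 17 (4.86%). The commonest chromosome among the genes most like Cdkn2b was 7, where it does not lie, with 18.

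The median level of chromosome 4 genes relative to all genes had the widest spread across tumors of the 20 chromosomes, with an SD of 0.24 on the log2 scale and a range from −0.46 to 0.41. That of chromosome 6 had an SD of 0.14. With the median of its own chromosome, members left out, Cdkn2c had rho 0.48 and r 0.38, and Cdkn1b had rho 0.48 and r 0.66 (permutation adjusted p = 0.174 for both rho, over 140 relations of 7 members with 20 chromosomes). Without the 2 farthest tumors r was 0.53 and 0.37. Cdkn2c had a higher rho with chromosome 10 than with its own (0.53, permutation adjusted p = 0.127). Cdkn2b had rho 0.17 with chromosome 4. Cdkn2a had rho 0.28 over all tumors, with 0.57 within K27M and −0.13 within WT-Tag tumors.

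**Figure D5:**
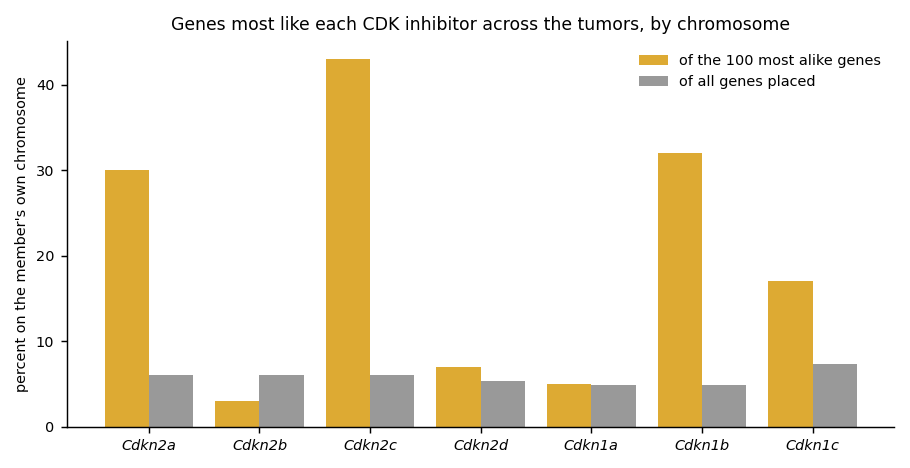
For each member, the percent of its 100 most alike genes across the 29 tumors that lie on its own chromosome (yellow) beside the percent of all placed genes on that chromosome (grey). Cdkn2c (43), Cdkn1b (32) and Cdkn2a (30) stand well above the grey bars, and Cdkn2b (3) and Cdkn1a (5) do not.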

How the data were processed

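The deposited table gives 1 FPKM value per gene and library, made by the authors. The submitters' processing notes name CASAVA, TopHat2, STAR and mm9, with no roles. The sources used here do not give the counter or its annotation. Per the labels, RNA was extracted with Trizol, ERCC spike-in was added to the neurosphere lysates, and libraries came from a stranded total RNA kit. Because FPKM are not counts, no count model was used. Values were taken as log2(FPKM + 1), which understates changes of low genes, and fitted with limma 3.58.1 in R 4.3.3 (empirical Bayes with a mean-variance trend). Genes needed 1 FPKM in at least 9 tumors, or in at least 3 libraries for fits with neurospheres. A call is a Benjamini-Hochberg adjusted p under 0.05 over all genes tested. Intervals cover 95%. The limma test was run on simulated data for the tumor genotypes, the hindbrain genotypes, and K27M tumors against hindbrain cultures. That noise was independent for each gene and library, so the run does not cover effects shared by the genes of a culture or library.

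The members and lists were chosen with earlier results of these data known. Named genes are the 7 members, the 3 genes most like each (5 for Cdkn2a), list genes that passed (at most 5 in each direction) and 8 genes always given (Cdk4, Cdk6, Ccnd1, Ccnd2, Rb1, Trp53, Mdm2 and Ezh2), with H3f3a, Pdgfra, Xist and Ddx3y as label checks. Pdgfra was at 146 and 162 FPKM by mean in K27M and WT-Tag tumors and at 5.74 to 12.5 in cultures. Experiment numbers paired the hindbrain cultures (correlations of deviations 0.41, 0.15 and 0.44). Between the WT-Tag regions they paired experiments 1 and 2 (0.67 and 0.71). There, forebrain culture 3 had 0.16 with hindbrain culture 3 and 0.50 with hindbrain culture 2. Other groups were not paired by these numbers. Depth is known only in relative terms. Relations across tumors used 100000 permutations, and the chromosome relations were added after the data were seen. Alternatives were other pseudocounts, filters and scalings, other model fits, and libraries left out.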

Additional observations from a re-analysis of the deposited data

Results flagged for a closer look

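Cdkn1a in WT-Tag tumor 29 stood at 41.6 FPKM, far above the next of the 9 WT-Tag tumors at 16.3. The gap took 0.767 of the group's range, above Dixon's 95% critical value for 9 samples. Among the 7 members it was the 1 such value in WT-Tag tumors, and chance marks about 1 in 20 groups this way. That tumor was not extreme in Cdkn1b (16.8 FPKM), and it also had the highest median level of chromosome 4 genes of the 29 tumors (0.41 on the log2 scale relative to all genes).

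Cdkn2a was lower with K27M in the forebrain culture and higher in the hindbrain culture of each experiment, although neither region's change passed in limma (adjusted p = 0.242 and 0.770). The log2 difference was −0.69, −0.86 and −0.16 in forebrain and 0.08, 0.11 and 0.10 in hindbrain for experiments 1, 2 and 3. These differences pair cultures by experiment number, which the forebrain cultures did not bear out (correlations of deviations 0.44, −0.23 and 0.35), and the fitted hindbrain change of 0.09 was −0.06 without the WT-Tag culture of experiment 3. The difference between the regions was 0.66 ± 0.27 (SE) and did not pass in limma (adjusted p = 0.737), all values being at most 3.92 FPKM.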

How the results depend on the processing

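Calls in neurospheres were few and near the threshold. With every library kept, the members called in hindbrain K27M against WT-Tag numbered 3, and 1 with no filter, with TPM scaling or with the 2 groups fitted alone, and 0 without experiment 3. The single call between WT-Tag regions became 0 with TPM scaling and without experiment 3. That between K27M regions became 0 with a pseudocount of 0.1, no filter, TPM scaling, a replicate block on the experiment id (added after the data were seen) and without experiment 3. With 1 library left out at a time these 3 counts ranged from 1 to 4, 0 to 1 and 0 to 1. Members called in tumors against hindbrain cultures ranged from 4 to 6 with K27M and from 2 to 3 with WT-Tag. Cdkn2b with K27M was lost with no filter (0.0770) and with the 2 groups alone (0.0680). Counts in tumors, forebrain and the interaction were 0 under each alternative.

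The replicate block on the experiment id kept the 3 hindbrain calls, and that on the culture letter kept the single call between regions in each genotype. Forebrain K27M changes of Cdkn2b and Cdkn1a were −0.0169 and −0.0041 with median-of-ratios scaling, and the WT-Tag region difference of Cdkn1b was 0.0178 with that scaling and 0.0181 without experiment 3. With 1 library left out, values that changed sign ranged from −0.189 to 0.103 (Cdkn1a, tumors), −0.0242 to 0.0961 (Cdkn1a, forebrain), −0.0418 to 0.112 (Cdkn2b, forebrain), −0.0613 to 0.246 (Cdkn2a, hindbrain), −0.242 to 0.288 (Cdkn2c, interaction), and, between WT-Tag regions, −0.213 to 0.317 (Cdkn2c), −0.263 to 0.0115 (Cdkn2d) and −0.215 to 0.173 (Cdkn1b). The cause was not tested. Over all genes, 1787 were called in hindbrain, against 1045 with no filter, 504 with TPM scaling, 286 with the 2 groups alone and 104 without experiment 3. In forebrain 47 became 23 with TPM scaling (16 higher and 7 lower, against 24 and 23), 85 with median-of-ratios scaling, 80 with the 2 groups alone and 0 without experiment 3. In tumors 13 (7 higher, 6 lower) became 26 with no filter, 9 with TPM scaling (6 higher, 3 lower), 0 in tumors labelled female and 8 without WT-Tag tumors 8 and 9. The interaction's 5 became 8 with no filter and 0 with a pseudocount of 0.1, TPM scaling, either block and without experiment 3, and 324 without the hindbrain WT-Tag culture of experiment 1. With 1 library left out, genes called ranged from 0 to 324 for the interaction, 566 to 4305 in hindbrain, 20 to 37 in forebrain, 8 to 18 in tumors, 121 to 660 between WT-Tag regions (660 without that same culture) and 522 to 801 between K27M regions. Between WT-Tag regions 240 became 145 with TPM scaling and 69 without experiment 3, and between K27M regions 1044 became 511 and 334. In the tumor relations 15 to 19 passed under 4 alternatives, of which 14 to 17 were among the 17 reported. FPKM carry no counts, so no counting error could be given.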

Other observations

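The median level of chromosome 4 genes in a tumor went with 2 members that lie elsewhere. Over the 29 tumors Cdkn1a (chromosome 17) had rho 0.62 and r 0.65 with it, and Cdkn1b (chromosome 6) had rho −0.61 and r −0.63 (permutation adjusted p = 0.0427 for both rho, over 140 relations). These were the 2 relations of the 140 that passed. Within K27M tumors rho was 0.64 and −0.61, within WT-Tag tumors 0.58 and −0.72, and without the 2 farthest tumors r was 0.62 and −0.55. Of the 100 genes most like Cdkn1a, 21 lie on chromosome 4, more than on any other chromosome. The relation was noticed after the lists of alike genes had been seen.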
